A study of Homo sapiens with 5 samples.

Results

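Steroidogenic factor-1 (SF-1) is the product of NR5A1, and its binding was examined here around its own gene, around NR5A2, its closest relative in the human genome, and around NR0B1 and NR0B2, which encode corepressors of these receptors. The members were all SF-1 peaks whose centre lay within 100 kb of the body of 1 of these 4 genes in the hg19 build. The rule used position alone, and 30 of the 30372 peaks of the series met it, at 23 distinct sites. Chromatin immunoprecipitation followed by sequencing (ChIP-seq) had been done in H295R/TR SF-1 cells. They are an inducible derivative of H295R, a human adrenocortical tumor line, and carry an SF-1 cDNA under doxycycline control. Cells without doxycycline (basal SF-1) were compared with cells that had received it for 3 days (overexpressed SF-1), to learn how the dosage of the factor changes the places it occupies. Each dosage was precipitated with 2 SF-1 antibodies, Millipore and Perseus, which gave 4 groups of 3 libraries, and the study also sequenced 2 libraries of input DNA. The libraries of a group had been pooled before peaks were called, so each group is 1 list and there are no replicates: no p-value was computed between lists, and differences between them are descriptions. The lists held 4393 peaks (basal Millipore), 11910 (overexpressed Millipore), 6616 (basal Perseus) and 7453 (overexpressed Perseus), and the number of reads behind each is unknown. All cells derive from 1 subclone, and peak lists cannot show whether it keeps the markers of adrenocortical cells.

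SF-1 is an orphan nuclear receptor of the adrenal cortex, the gonads and the pituitary that switches on the genes of steroid hormone synthesis, and it binds DNA as a monomer at words of the type CAAGGTCA. NR5A2 encodes LRH-1, which recognizes the same words and is known for bile acid and cholesterol metabolism in liver and for ovarian function. NR0B1 (DAX-1, the gene mutated in X-linked adrenal hypoplasia congenita) and NR0B2 (SHP, a target of the bile acid receptor in liver) encode receptors without a classical DNA-binding domain, which bind other nuclear receptors, SF-1 and LRH-1 among them, and repress their activity.

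The sequences that the results below turn on are printed from the hg19 plus strand, with each SF-1 word in capitals. The word searched was CAAGGTC or CAAGGCC on either strand, so that a match on the minus strand appears as its reverse complement. The first sequence is the site 5' of NR0B2, the only one of the 23 sites present in every list, which spans chr1:27240701-27241000 as shown, in an intron of NUDC.
NR0B2 upstream site: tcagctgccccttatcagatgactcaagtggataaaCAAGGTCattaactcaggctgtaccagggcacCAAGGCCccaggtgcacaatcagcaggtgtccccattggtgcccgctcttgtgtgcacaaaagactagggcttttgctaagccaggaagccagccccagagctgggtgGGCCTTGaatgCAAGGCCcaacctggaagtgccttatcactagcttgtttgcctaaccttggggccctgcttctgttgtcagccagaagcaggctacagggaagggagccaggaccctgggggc
The second, 3' of NR0B2 at chr1:27184501-27184749 and intergenic, was present in both Perseus lists.
NR0B2 downstream site: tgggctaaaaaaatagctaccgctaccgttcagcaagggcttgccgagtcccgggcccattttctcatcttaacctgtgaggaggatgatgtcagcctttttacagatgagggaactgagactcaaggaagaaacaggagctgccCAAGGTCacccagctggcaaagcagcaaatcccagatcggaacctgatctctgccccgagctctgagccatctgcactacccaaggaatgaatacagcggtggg
The next 2 form the shared cluster 3' of NR5A1, at chr9:127191551-127191699 and chr9:127190901-127191049, both intergenic. They are shown because between them they account for every NR5A1 peak that overlapped another list.
NR5A1 distal site: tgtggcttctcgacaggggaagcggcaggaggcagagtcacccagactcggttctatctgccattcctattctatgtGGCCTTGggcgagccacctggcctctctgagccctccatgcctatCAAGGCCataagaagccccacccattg
NR5A1 distal neighbour: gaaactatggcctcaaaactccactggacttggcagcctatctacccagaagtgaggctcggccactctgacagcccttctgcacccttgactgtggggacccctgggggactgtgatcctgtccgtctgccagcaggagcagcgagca
Of the 3 peaks within 1 kb of the NR5A1 start, those without exon sequence are shown. They were the overexpressed Perseus peak at chr9:127269701-127269799, where the capitals mark an E-box (CACGTG) and no SF-1 word was present, and the basal Millipore peak at chr9:127270551-127270749, which held neither. Both are intergenic.
NR5A1 start site peak: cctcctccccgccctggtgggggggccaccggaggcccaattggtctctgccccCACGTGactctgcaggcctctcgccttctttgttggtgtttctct
NR5A1 basal upstream peak: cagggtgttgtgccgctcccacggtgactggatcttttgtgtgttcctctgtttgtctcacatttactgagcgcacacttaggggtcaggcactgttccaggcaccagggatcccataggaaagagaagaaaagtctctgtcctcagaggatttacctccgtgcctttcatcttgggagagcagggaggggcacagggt
The last is the intronic overexpressed Millipore peak of NR5A2 at chr1:200005551-200005749, which held no SF-1 word.
NR5A2 intron peak: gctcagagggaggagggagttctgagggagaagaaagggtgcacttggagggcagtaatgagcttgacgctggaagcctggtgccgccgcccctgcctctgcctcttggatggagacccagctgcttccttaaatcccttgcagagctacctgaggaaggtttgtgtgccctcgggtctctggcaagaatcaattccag

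The own gene of the factor had the most peaks of the 4, followed by NR0B2, whereas NR5A2 had few and NR0B1 had none. NR5A1 and NR0B2 had 9 peaks each in the better-ranked 50% of the lists, and again 9 each when every list was held to its 4393 best-ranked peaks, so the lead of NR5A1 was not present there. In the order basal Millipore, overexpressed Millipore, basal Perseus and overexpressed Perseus, NR5A1 had 2, 6, 3 and 5 peaks, or 16 in all. NR0B2 had 2, 4, 2 and 3, or 11 in all, and NR5A2 had 0, 2, 0 and 1. Totals count a site once for each list that holds it. NR0B1 had 0 peaks in every list, which allows a share of up to 0.0683%, 0.0252%, 0.0453% and 0.0403% of the lists, and all limits and intervals given here are at the 95% level or from a floor of 3 counts and cover counting error only.

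**Figure D1:**
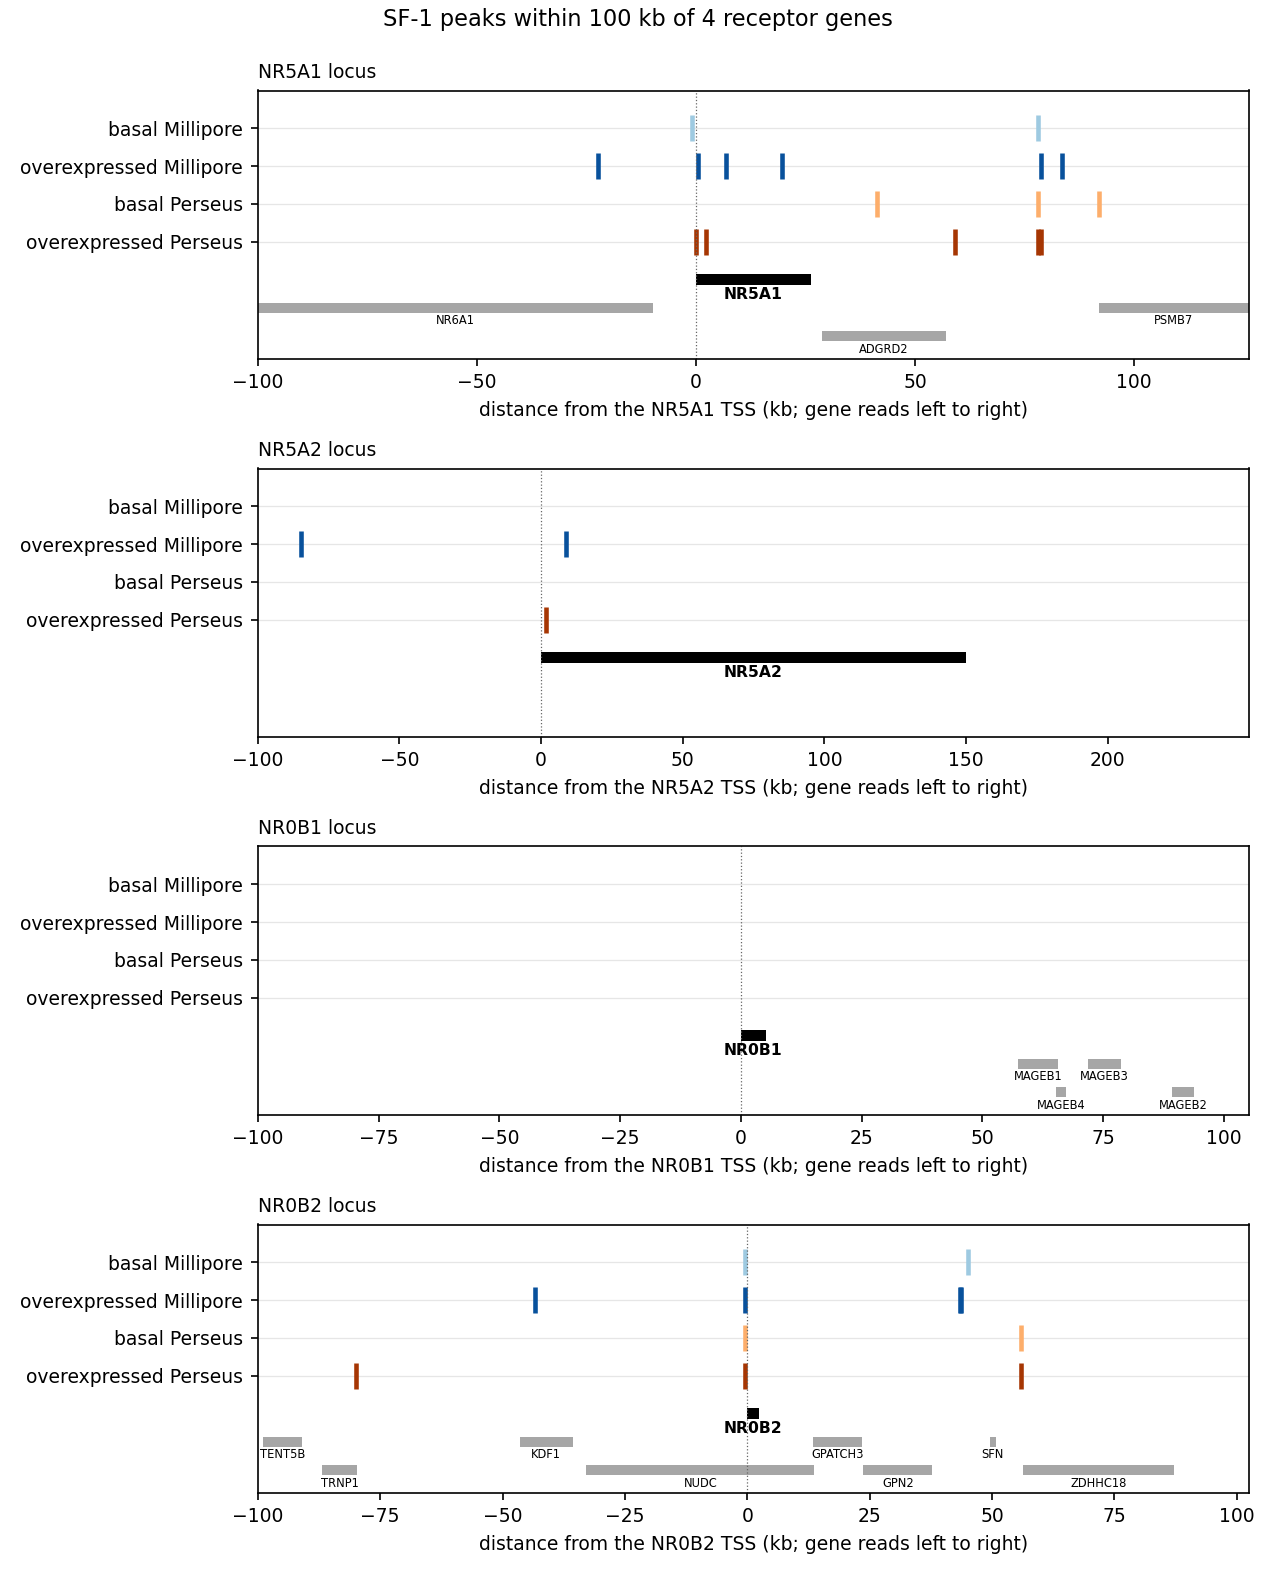
Positions of the 30 peaks along each gene, as distance of the peak centre from the transcription start site (TSS) in kb, with 1 row per peak list, the receptor gene as a black bar and the other protein-coding genes of the window as grey bars. NR5A1 and NR0B2 had peaks in every list, NR5A2 had 3 peaks, all at overexpressed dosage, and the NR0B1 window was empty.

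Windows of 100 kb around a gene usually catch a peak, so these counts were set beside those of all 20163 protein-coding genes. NR5A1 and NR0B2 each had at least 1 peak in all 4 lists, as did 19.5% of protein-coding genes. At least 1 basal Millipore peak was present at 36.5% of genes, among them NR5A1 and NR0B2, and at least 1 basal Perseus peak at 52.6%, again with these 2 of the 4 receptors. For the overexpressed lists the shares were 67.9% with Millipore and 56.7% with Perseus, and here NR5A2 was included as well. No peak of any list was found at 15.7% of genes, of which NR0B1 was 1. The presence of a peak near NR5A1 and NR0B2 was therefore shared with 36.5% to 67.9% of genes by list, and presence in all 4 lists with 19.5%. Over the 4 lists a gene had a median of 3 peaks and a 90th percentile of 12. The 16 peaks of NR5A1 were more than those of 94.6% of genes, the 11 of NR0B2 more than those of 87.1%, and the 3 of NR5A2 more than those of 41.6%.

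**Figure D2:**
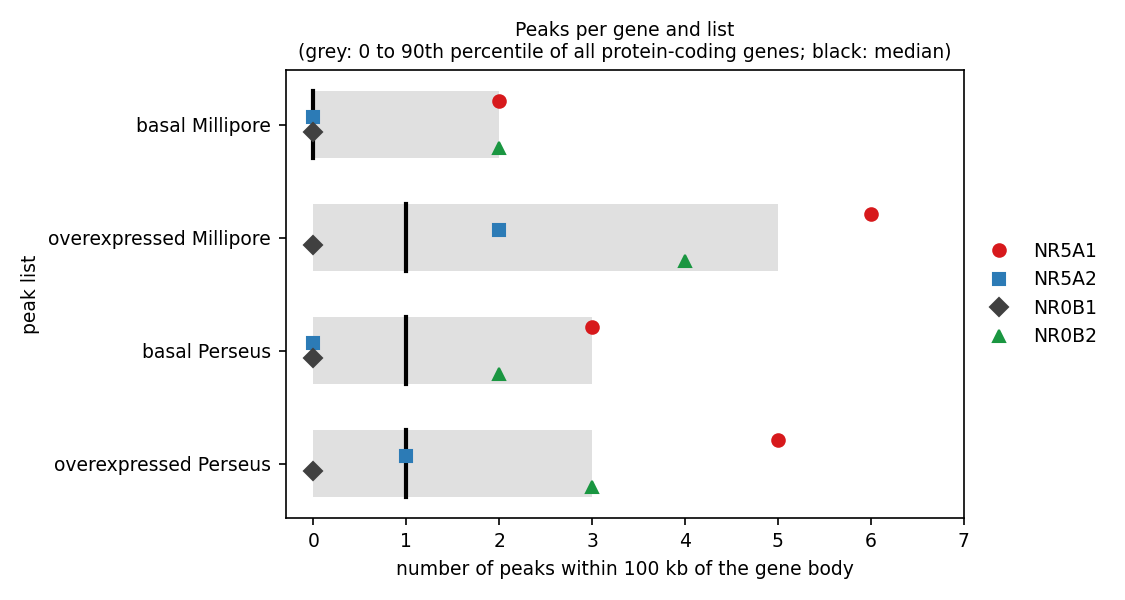
Number of peaks within 100 kb of each receptor gene (x axis) in each list (y axis), with the range from 0 to the 90th percentile of all protein-coding genes in grey and their median as a black line. NR5A1 reached or exceeded the 90th percentile in every list, with counts of 2, 6, 3 and 5, and NR0B2 did so in the basal Millipore and overexpressed Perseus lists.

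Gene bodies differ in length, from 2.49 kb for NR0B2 and 5.18 kb for NR0B1 to 26.2 kb for NR5A1 and 149.8 kb for NR5A2, and a longer body widens the window. Per 100 kb of window, over the 4 lists together, NR5A1 had 7.07 peaks, NR0B2 5.43, NR5A2 0.858 and NR0B1 0. The median of all protein-coding genes was 1.29 per 100 kb and the 90th percentile 5.01. By this measure NR5A1 stood above 95.5% of genes, NR0B2 above 91.6% and NR5A2 above 37.6%, and the order of the 4 genes was the same as by counts. The order of the first 2 depended on the setting: within 50 kb NR0B2 had 7.81 and NR5A1 7.13 peaks per 100 kb, and in the better-ranked 50% or at equal list length NR0B2 had 4.44 and NR5A1 3.98.

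The surroundings of the 4 genes differed in the same direction. From 5 Mb before to 5 Mb after the gene body, peaks of all lists together numbered 564 around NR5A1, or 5.63 per 100 kb, against 0.981 per 100 kb over the genome. Around NR0B2 there were 206, or 2.06 per 100 kb, around NR5A2 111, or 1.09 per 100 kb, and around NR0B1 3, or 0.0300 per 100 kb. The density at NR5A1 was thus 7.07 in a region that held 5.63, and that at NR0B2 was 5.43 in a region that held 2.06. Among the 799 protein-coding genes of chromosome 9 the median was 8 peaks, and 29.8% had at least 16. Of the 2092 genes of chromosome 1, where the median was 3, 5.98% had at least the 11 of NR0B2. On the X chromosome 61.0% of 869 genes had no peak in any list, as was the case for NR0B1. The part of the regional density in the counts of the receptors was not tested.

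In the full lists, more peaks were present at overexpressed than at basal dosage with both antibodies at NR5A1, NR5A2 and NR0B2. This pattern was found at 23.3% of protein-coding genes. The members numbered 4 at basal and 12 at overexpressed dosage with Millipore, a ratio of 3.00 beside 2.71 for the whole lists. With Perseus they numbered 5 and 9, a ratio of 1.80 beside 1.13. As a share of the list they were 0.0911% (95% exact binomial interval 0.0248% to 0.233%) and 0.101% (0.0521% to 0.176%) for Millipore. For Perseus they were 0.0756% (0.0245% to 0.176%) and 0.121% (0.0552% to 0.229%). These intervals cover counting error within each list only, and they overlapped between dosages with both antibodies. With every list held to its 4393 best-ranked peaks, NR5A1 and NR0B2 had 2 Perseus peaks each at both dosages. With Millipore they had 2 each at basal and 3 each at overexpressed dosage, and NR5A2 had none in any list. At that length, none of these genes had more overexpressed than basal peaks with both antibodies. With 1 list per group, a difference beyond the change in list length was not tested.

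NR5A1 occupies chr9:127243515-127269699 on the minus strand, between NR6A1, another orphan nuclear receptor gene, on its 5' side and ADGRD2 and PSMB7 on its 3' side. Its 16 peaks fell at 13 sites, of which 3 peaks lay upstream of the TSS, 4 in the gene body and 9 beyond its 3' end. Ranks, which begin at 1 for the best peak, are also given as a percentage of the list, where a low value is a good rank, and ranks of different lists are not on one scale.

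Around the start of NR5A1 each list differed. The basal Millipore list had a peak centred 951 bp upstream (chr9:127270551-127270749, rank 795, 18.1%), the lowest rank percentage of the NR5A1 peaks. The overexpressed Millipore list had none there and instead a peak 524 bp downstream of the TSS (chr9:127269101-127269249, rank 7317, 61.4%), mainly intronic with 13 bp of untranslated exon. The overexpressed Perseus list had a peak at -51 bp (chr9:127269701-127269799, rank 6983, 93.7%), and the nearest basal Perseus peak lay 41.2 kb away. None of the 3 peaks within 1 kb of the start overlapped another, and none held an SF-1 word. Of all peaks of the series, 27.0% overlapped another list and 23.4% held the word, and 3 peaks are too few to compare with these shares. The sequence within 1 kb of the TSS held 3 SF-1 words, with centres at -449, -201 and 184 bp.

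The peak at -51 bp covered the E-box of the NR5A1 promoter, at -59 bp from the TSS used here. An E-box is the binding word of helix-loop-helix factors such as USF, and the one in this promoter is known to be needed for NR5A1 transcription. The whole peak was found letter for letter in the RefSeq promoter of NR5A1 (GRCh38.p14), from base -121 to base -23 relative to its start. CACGTG was present in 7.26% of the 35116 RefSeq promoters and the SF-1 word in 9.01%, and the NR5A1 promoter held both. The E-box was searched after the position of this peak had been seen. It was found in 1.91%, 4.11%, 3.43% and 3.17% of all peaks of the lists, in the order used above.

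**Figure D3:**
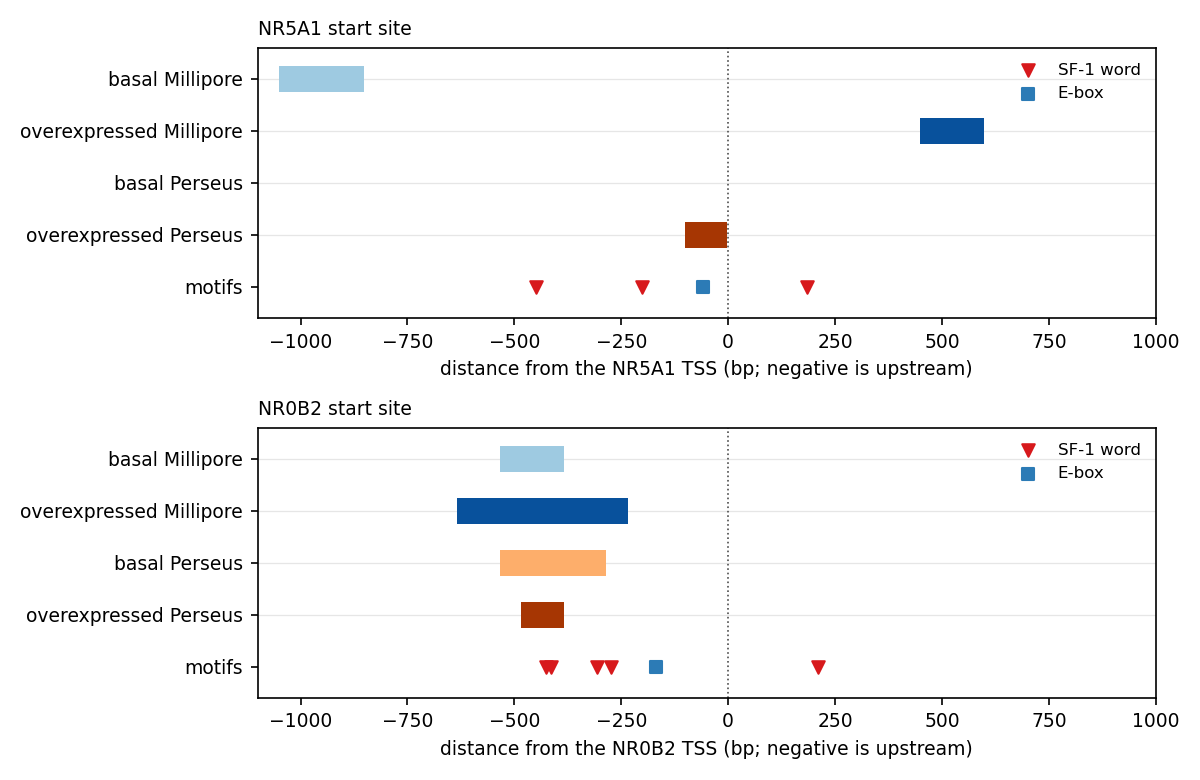
Peaks (bars, to scale) in the 4 lists around the start sites of NR5A1 and NR0B2, as distance from the TSS in bp, with SF-1 words as red triangles and E-boxes as blue squares where they lay within 1 kb. At NR0B2 the peaks of all lists overlapped, with centres between -459 and -409 bp, over a group of SF-1 words, whereas the 3 peaks at NR5A1 lay apart and over none.

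Within the body of NR5A1 there were 4 peaks, all at overexpressed dosage, whose lists held 11910 and 7453 of the 30372 peaks of the series. The Millipore antibody gave 3 of them, at 524 bp, at 6874 bp (chr9:127262501-127263149, rank 4923, 41.3%) and at 19599 bp from the TSS (chr9:127249901-127250299, rank 3773, 31.7%). The Perseus antibody gave 1, in an intron at 2224 bp (chr9:127267351-127267599, rank 1909, 25.6%), which held a CAAGGCC word and had a GC content of 73.5%. The peak at 6874 bp was the widest of all 30 at 649 bp, and 494 bp of it were coding exon. The cells carry an SF-1 cDNA as a transgene at both dosages, and its reads would map to coding exons of NR5A1. Their part in this peak was not tested. None of the 4 overlapped a peak of another list, beside 16.6% of all overexpressed Millipore and 37.9% of all overexpressed Perseus peaks that did.

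The NR5A1 peaks that recurred were distal. A pair of neighbouring sites about 78 kb downstream of the TSS and about 52 kb beyond the 3' end, 451 bp apart within 849 bp of intergenic DNA (chr9:127190901-127191749), held 5 of the 16 peaks. One site was present in the basal Millipore list at rank 1800 (41.0%), in the basal Perseus list at rank 4549 (68.8%) and in the overexpressed Perseus list at rank 5054 (67.8%). The other was present in the overexpressed Millipore list at rank 5998 (50.4%) and in the overexpressed Perseus list at rank 2795 (37.5%). The pair together was thus present in all 4 lists, although neither site was. The first site held CAAGGCC on both strands, as printed above, and the second held no SF-1 word.

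The remaining NR5A1 peaks were each in 1 list and lay at or near other genes. A basal Perseus peak (chr9:127177651-127177849, rank 1225, 18.5%) covered the start of PSMB7, a proteasome subunit gene, 27 bp from its TSS, and an overexpressed Millipore peak (chr9:127185801-127186299, rank 2696, 22.6%) lay 8327 bp from the same TSS. In ADGRD2, an adhesion receptor gene, a basal Perseus peak (chr9:127228351-127228599, rank 3479, 52.6%) overlapped 63 bp of coding exon and held CAAGGTC. An overexpressed Perseus peak (chr9:127210601-127210699, rank 4662, 62.6%) lay 2080 bp from the ADGRD2 TSS. The remaining peak was an overexpressed Millipore peak in an intron of NR6A1 (chr9:127291901-127292149, rank 3641, 30.6%), 22326 bp upstream of NR5A1.

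NR5A2 occupies chr1:199996742-200146548 on the plus strand and had no basal peak. The nearest basal peaks lay 335 kb (Millipore) and 125 kb (Perseus) from its body. The overexpressed Millipore list had an intronic peak at 8908 bp from the TSS (chr1:200005551-200005749, rank 7204, 60.5%) and an intergenic peak at -84567 bp (chr1:199912101-199912249, rank 9013, 75.7%). The overexpressed Perseus list had a peak at 1683 bp (chr1:199998351-199998499, rank 7168, 96.2%) that overlapped 85 bp of coding exon and 64 bp of untranslated exon. None of the 3 overlapped a peak of another list, none held an SF-1 word, and none ranked in the better 50% of its list. Of all overexpressed Millipore and Perseus peaks, 16.6% and 37.9% overlapped another list, and 20.2% and 26.2% held the word. With 3 peaks, no comparison with these shares was possible. The window itself contained 94 SF-1 words, or 2.69 per 10 kb, close to the 2.48 per 10 kb of the genome, and 1 of them lay within 1 kb of the TSS, at 149 bp. The paralog had 0.858 peaks per 100 kb and the own gene of the factor 7.07.

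NR0B1 occupies chrX:30322323-30327507 on the minus strand, and the members of the MAGEB family of tumor antigens follow on its 3' side. The nearest peak of the basal Millipore list lay 166 kb upstream of its start, at rank 3643 (82.9%), and that of the overexpressed Millipore list 711 kb from the body, at rank 9316 (78.2%). With Perseus the nearest peaks were 2246 kb (basal) and 8349 kb (overexpressed) away. SF-1 words were present: the window contained 66, or 3.22 per 10 kb, with no unknown bases, and 1 of them lay at -456 bp from the TSS. The X chromosome had 0.322, 0.805, 0.489 and 0.432 peaks per Mb in the 4 lists, against 1.42, 3.85, 2.14 and 2.41 over the genome. In both dosages and with both antibodies, then, no peak was called near this corepressor gene, in a chromosome that had few peaks altogether.

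NR0B2 occupies chr1:27237980-27240466 on the minus strand and lies inside the body of NUDC, a nuclear migration gene annotated on the opposite strand. Its upstream site was found at both dosages and with both antibodies. The 4 peaks were centred at -459 bp (basal Millipore, rank 908, 20.7%), -434 bp (overexpressed Millipore, rank 23, 0.193%), -409 bp (basal Perseus, rank 3060, 46.3%) and -434 bp (overexpressed Perseus, rank 7380, 99.0%). The Millipore peak was among the best of its list at overexpressed dosage, while the Perseus peak at that dosage was among the last. A peak centre of every list within 1 kb of the TSS was found at 0.184% of protein-coding genes, and NR0B2 was the 1 receptor of the 4 among them.

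The overexpressed Millipore peak, 399 bp wide, held 4 SF-1 words, namely CAAGGTC at -274 bp and CAAGGCC at -306, -414 and -425 bp. Peaks with at least 4 words were few, 7 in the basal Millipore, 29 in the overexpressed Millipore, 10 in the basal Perseus and 24 in the overexpressed Perseus list. The narrower peaks of the other lists all covered the words at -414 and -425 bp, which lie on opposite strands, and the basal Perseus peak also covered the word at -306 bp. Within 1 kb of its TSS NR0B2 had 5 SF-1 words, a number that 0.203% of protein-coding genes reached. NR5A1 had 3, reached by 4.15%, and NR5A2 and NR0B1 had 1 each, reached by 48.3%.

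Other sites near NR0B2 lay 3' and 5' of it. Both Perseus lists shared an intergenic site centred 55891 bp (basal) and 55841 bp (overexpressed) downstream, about 5 kb from the start of SFN, the 14-3-3 sigma gene. It ranked 311 (4.70%) at basal and 1855 (24.9%) at overexpressed dosage and held CAAGGTC. Between this site and NR0B2, the Millipore lists had 3 peaks within 2 kb of each other that did not overlap. The basal one (chr1:27195251-27195399, rank 1740, 39.6%) and the better of the overexpressed ones (chr1:27196651-27196799, rank 3567, 29.9%) held 2 copies of CAAGGCC each, and the last (chr1:27197001-27197099, rank 11752, 98.7%) held none. Upstream lay an overexpressed Millipore peak in an intron of KDF1 (chr1:27283851-27283999, rank 1721, 14.5%), an epidermal gene, and an overexpressed Perseus peak in the first part of TRNP1 (chr1:27320201-27320399, rank 1781, 23.9%), 117 bp from its TSS. Neither held an SF-1 word, and the TRNP1 peak had the highest GC content of all members, 74.4%.

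**Figure D4:**
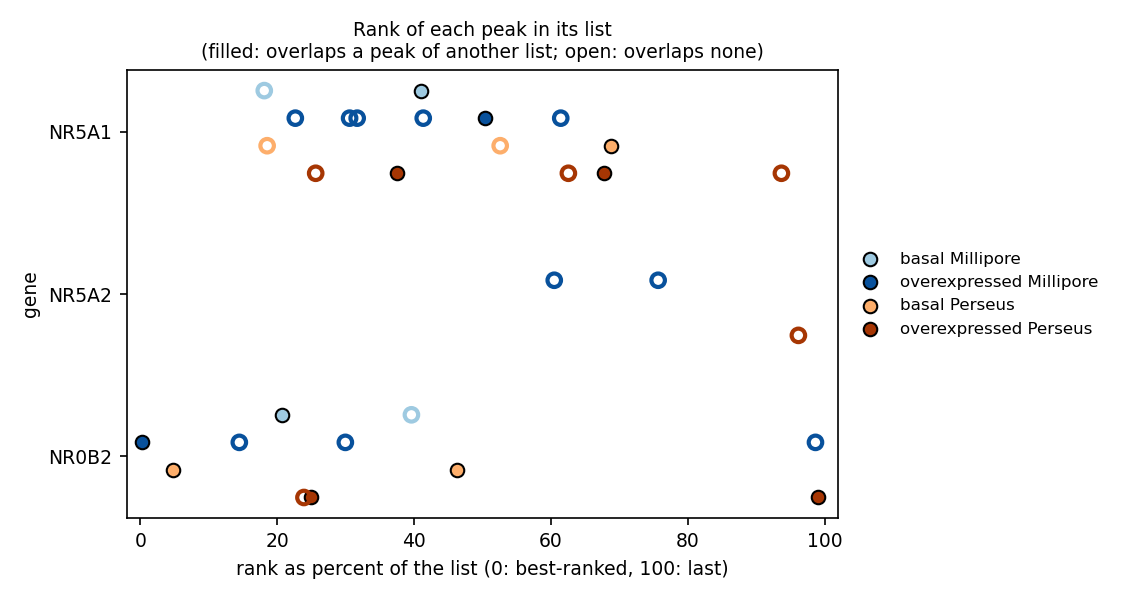
Rank of each of the 30 peaks as a percentage of its list (x axis, 0 is best), by gene and list, filled where the peak overlapped a peak of another list and open where it did not. The NR0B2 peaks ran from 0.193% to 99.0%, those of NR5A1 from 18.1% to 93.7%, and the 3 of NR5A2 from 60.5% to 96.2%.

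Sharing between lists was then compared among the genes. Of the 30 peaks, 11 overlapped a peak of at least 1 other list, or 36.7% (95% exact interval 19.9 to 56.1%), beside 27.0% of all peaks of the series. The share was 6 of 11 at NR0B2, 5 of 16 at NR5A1 and 0 of 3 at NR5A2, or 54.5% (23.4 to 83.3%), 31.2% (11.0 to 58.7%) and 0% (up to 70.8%). Overlap is mutual, so the peaks are not independent, the intervals of this paragraph are too narrow, and no difference between the genes was tested. By site, 2 of 7 at NR0B2, 2 of 13 at NR5A1 and 0 of 3 at NR5A2 were in more than 1 list. The 27.0% above is a share of peaks, not of sites, and cannot be set beside these counts. By list, the basal Millipore peaks that were shared numbered 1 of 2 at NR5A1 and 1 of 2 at NR0B2, beside 20.9% of that whole list. Of the overexpressed Millipore peaks 1 of 6 and 1 of 4 were shared, beside 16.6%, of the basal Perseus peaks 1 of 3 and 2 of 2, beside 37.7%, and of the overexpressed Perseus peaks 2 of 5 and 2 of 3, beside 37.9%.

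The SF-1 word was present in 13 of the 30 peaks, or 43.3% (25.5 to 62.6%), beside 23.4% of all peaks. A shared site counts once per list here, so the site upstream of NR0B2 counted 4 times and the NR5A1 distal site 3 times. The peaks are therefore not independent, the intervals of this paragraph are too narrow, and no enrichment was tested. At NR0B2 it was present in 8 of 11 (72.7%, 39.0 to 94.0%), at NR5A1 in 5 of 16 (31.2%, 11.0 to 58.7%) and at NR5A2 in 0 of 3. Of the basal Millipore members 3 of 4 held it, beside 20.7% of that list, and of the overexpressed Millipore members 2 of 12, beside 20.2%. Of the basal Perseus members 4 of 5 held it, beside 27.7%, and of the overexpressed Perseus members 4 of 9, beside 26.2%. Windows of the same width 5 kb to each side of all peaks held it in 4.07%, 6.23%, 4.90% and 5.39% for the 4 lists. At NR5A1 none of the 6 overexpressed Millipore peaks held the word, which leaves 5 of the 10 peaks of the other lists.

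The member share rested on the CAAGGCC form. CAAGGTC alone was present in 4 of the 30 peaks, or 13.3% (3.76 to 30.7%), beside 13.7% of all peaks, a value inside the interval. Word and sharing went together: 9 of the 11 shared member peaks held the word (81.8%, 48.2 to 97.7%) and 4 of the 19 others did (21.1%, 6.05 to 45.6%). Over all peaks the shares were 41.3% and 16.7%. Overlapping peaks contain the same letters, and these 9 peaks represent 3 sites, so they are not independent. NR0B2 had 108 words in its window with 9 in a peak, NR5A1 91 with 4, NR5A2 94 with 0 and NR0B1 66 with 0. Per 10 kb of window they numbered 5.33 at NR0B2, 4.02 at NR5A1, 3.22 at NR0B1 and 2.69 at NR5A2, beside 2.48 over the genome. NR0B2 and NR5A1, which had the most peaks, also had the highest word densities, in the reverse order. NR0B1, without a peak, was above NR5A2.

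The core of the binding sequence of NRSF/REST, a repressor of neuronal genes whose sequence the study examined in the SF-1 sites, was absent from all 30 peaks at up to 2 mismatches in 13 fixed positions (CAGCACC, 2 free bases, GGACAG). The closest match among them had 3 mismatches. The core was found in 1.78%, 2.84%, 1.31% and 1.52% of all peaks of the 4 lists, and 30 peaks are too few to compare with shares of this size.

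Genes that act with these receptors were counted in the same way, with a list of 23 coregulators of SF-1 and regulators of NR5A1 or NR0B1. At least 1 peak was present near 8, 19, 14 and 16 of the 23 in the 4 lists, beside 36.5%, 67.9%, 52.6% and 56.7% of all protein-coding genes, and the median number was 0, 2, 1 and 1, beside 0, 1, 1 and 1 for all protein-coding genes. Peaks of every list were found near 6 of the 23, beside 19.5% of all genes, among them the coactivator gene NCOA3, CTNNB1 (beta-catenin), the SUMO ligase gene PIAS1, and SP1 and USF2, whose products bind GC-rich and E-box sequences. PIAS1 had 31 peaks in all, with 2, 14, 6 and 9 in the lists, more than the 16 of NR5A1. PPARGC1A, TCF21 and WT1 had none in any list, as NR0B1 had none.

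The counts of NR5A1 over the 4 lists were matched without difference by 3 protein-coding genes on other chromosomes. They were SH3BP1, a GTPase-activating protein gene on chromosome 22, a gene without a symbol that overlaps it (ENSG00000285304) and LRRC25 on chromosome 19, each with 2, 6, 3 and 5 peaks. The first 2 share their peaks, and the likeness is over 4 lists only.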

How the data were processed

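SF-1 binding was measured by ChIP-seq in H295R/TR SF-1, with 3 pooled libraries for each of 4 combinations of SF-1 dosage and antibody. According to their methods, the authors mapped reads to hg19 with ELAND v2 and called peaks against input DNA with SeqPeak of CisGenome v2, and the submitters' processing notes name CASAVA 1.6. Each deposited list gives positions, a rank and a score. In all peaks the deposited score equalled 1000, so it was not used, and the rank, also treated as a score, served only to order peaks, since the quantity ranked on is not given in the sources used here. Starts fell on a grid of 50 bp. Read numbers are unknown, and deeper libraries yield more peaks, so list lengths can reflect depth as well as dosage. The input DNA has no peak list and was not used here.

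Peaks were converted to 1-based coordinates and placed on GRCh37 with GENCODE version 44. A peak belonged to a gene when its centre lay within 100 kb of the gene body, and to a shared site when it overlapped a peak of another list by at least 1 bp. The TSS was the outermost start of the gene. Shares carry exact (Clopper-Pearson) binomial intervals at 95%. Counts were set beside those of all 20163 protein-coding genes, and words beside all peaks and windows 5 kb away. Members, gene lists and words were chosen with earlier results of these data known. The genes named were the 4 receptors, the genes whose body held a member peak or whose TSS was nearest to it, the 3 genes most like NR5A1 by the summed difference in counts, and 23 coregulators and regulators. The values of 1 gene of that list are not reported here. Sequences printed were peaks in more than 1 list or nearest, within a list, to the start of a receptor gene, without those that overlapped an exon. The E-box search, the comparison with genes of the same chromosome and the 5 Mb surroundings were chosen after values were seen. RefSeq promoters (GRCh38.p14) ran from 250 bases before to 50 after a start and were matched by symbol for NR5A1, NR5A2 and NR0B1.

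Alternatives covered distance, membership by any base, the better-ranked 50%, lists of equal length, overlap and word. The counting was tested on simulated data, where all 300 gene counts, 500 planted overlaps and 200 planted words were recovered. Sequences were read with pysam 0.24.0 and figures drawn with matplotlib 3.10.9, in Python 3.11.15. Intervals came from scipy 1.17.1, and tables were handled with pandas 2.3.3.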

Additional observations from a re-analysis of the deposited data

Results flagged for a closer look

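The site upstream of NR0B2 moved in opposite directions with dosage in the lists of the antibodies. Its rank as a percentage of the list differed by -20.5 points between overexpressed and basal SF-1 with Millipore (from 20.7% to 0.193%, a better rank) and by 52.8 points with Perseus (from 46.3% to 99.0%, a worse rank). With 1 list per group the difference was not tested, and ranks of separate lists are not on one scale.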

How the results depend on the processing

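Peak lists from pooled libraries of unknown depth limit all counts, and with so few members 1 or 2 peaks change a ratio. No paired analysis was possible because each group is 1 pooled list, and for the same reason no library could be left out in turn. The number of members per list kept within 1.5 times its value when any base decided membership or distance ran from the TSS. A window of 200 kb gave 21 overexpressed Millipore and 8 basal Perseus members, and one of 50 kb gave 2 basal and 5 overexpressed Perseus members. The better-ranked 50% of each list held 7 overexpressed Millipore, 3 basal Perseus and 4 overexpressed Perseus members, and the 4393 best-ranked peaks held 6 and 4 at overexpressed dosage with Millipore and Perseus. At equal list length the excess at overexpressed dosage thus fell to 6 against 4 members with Millipore, and with Perseus both dosages had 4. Sites in more than 1 list numbered 1 within 50 kb and 2 in the better-ranked 50%, against 4. The share of members with the SF-1 word was 13.3% with AAGGTCA or CAAGGTCA in place of 43.3%. With the better-ranked 50% or equal list length, the density at NR5A1 was 3.98 per 100 kb, below the 4.44 of NR0B2, and that at NR5A2 was 0. Within 50 kb NR0B2 was also above NR5A1, with 7.81 against 7.13. Only at 200 kb did NR0B1 have a peak, 1 in all.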
